A study of Arabidopsis thaliana with 12 samples.

Results

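The lineage difference described here is the part of the contrast between the apical cell lineage (ACL) and the basal cell lineage (BCL) that was present at both embryo stages. All 12 libraries of the study entered it. The 6 ACL libraries were 3 of the apical cell (AC) and 3 of the embryo proper at the 32-cell stage (32E). The 6 BCL libraries were 3 of the basal cell (BC) and 3 of the suspensor at the 32-cell stage (32S). All plants were of the Columbia ecotype (labelled Col) and were grown in long days, with no treatment in any group. The source labels of the 32-cell libraries count up by 1 cell from library to library, while their stage labels are all the same. The AC and BC were taken from embryos after the first zygote division, which the sample labels call 2-celled and the study calls the 1-cell embryo stage. Each sample pooled a small number of isolated cells, or of their descendants, from seeds treated with cell wall enzymes, with embryos dissected by hand and lineages parted by laser, and its mRNA was amplified by a SMART-seq protocol before library construction. The groups are thus whole domains, and 32E holds several cell types.

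The first division of the Arabidopsis zygote is unequal. Its small apical daughter gives rise to nearly all of the embryo, whereas its large basal daughter divides in a file to form the suspensor, a short-lived organ that anchors and feeds the embryo and later dies. WOX homeobox factors, directional auxin transport and a MAP kinase cascade are known to act in setting the daughters apart. Cells of the apical lineage keep dividing in all planes, and suspensor cells stop dividing early.

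For each gene the value was FPKM, the number of sequenced fragments scaled for transcript length and library size, as deposited by the authors. Differences are given on the log2(FPKM + 1) scale as apical minus basal, so a positive value means a higher level in the ACL. They understate the change of low genes. Of 32399 genes in the files, 17060 with FPKM above 1 in at least 3 libraries were tested. A gene was called with an adjusted p under 0.01 and a difference of at least 1 in size, by limma with Benjamini-Hochberg adjustment over all genes tested. A difference was shared when a gene was called in the same direction at both stages. It was constant when, in addition, the 95% confidence interval of the change in the difference between stages lay within 1 log2 unit of zero. The series' design calls the replicates independent. The p-values within a stage, and those of the change between stages, measure the spread between replicates. A contrast pooled over both stages, with stage as a covariate, also counts the change of the difference between stages as spread.

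The study reports the number of reads of each library, but the files hold no read counts per gene. How many reads lie behind a low value is thus unknown, and a gene at 0 is described only as listed at 0. Between 13034 and 15322 genes were above 1 FPKM in a library. Replicates of AC, BC and 32E had correlations of 0.987 to 0.997 across genes. 32S replicate 2 stood further from the other 32S libraries, with a lowest correlation of 0.949. Without it, 892 genes were shared with the apical side higher and 1026 with the basal side higher, against 889 and 955 with all libraries.

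Across both stages, with stage as a covariate, 2080 genes were higher in the ACL (12.2% of the genes tested) and 1901 were higher in the BCL (11.1%). Within the stages, 3237 genes were higher in AC than BC (19.0%) and 3131 were lower (18.4%), and 4053 were higher in 32E than 32S (23.8%) and 3854 were lower (22.6%). In a bulk sample, fewer cells of a type and less RNA per cell cannot be told apart. A shared difference was found for 889 genes with the ACL higher (5.21% of the genes tested) and 955 with the BCL higher (5.60%).

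The contrasts of the 2 stages share no library, so their lists can be set side by side. Of the genes higher in AC than BC, 27.5% were also higher in 32E than 32S, where 23.8% of all genes tested were. Those 889 genes made up 21.9% of the genes higher in 32E. Of the genes higher in BC, 30.5% were also higher in 32S, against a background of 22.6%, and they made up 24.8% of the 32S list. Calls in opposite directions were 559 genes higher in AC and then in 32S, which is 17.3% of the AC list, and 387 genes higher in BC and then in 32E, which is 12.4% of the BC list. Across the 17060 genes the differences of the 2 stages had a Pearson r of 0.196 and a Spearman rho of 0.166, which is a description over genes that are not independent of each other.

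**Figure D1:**
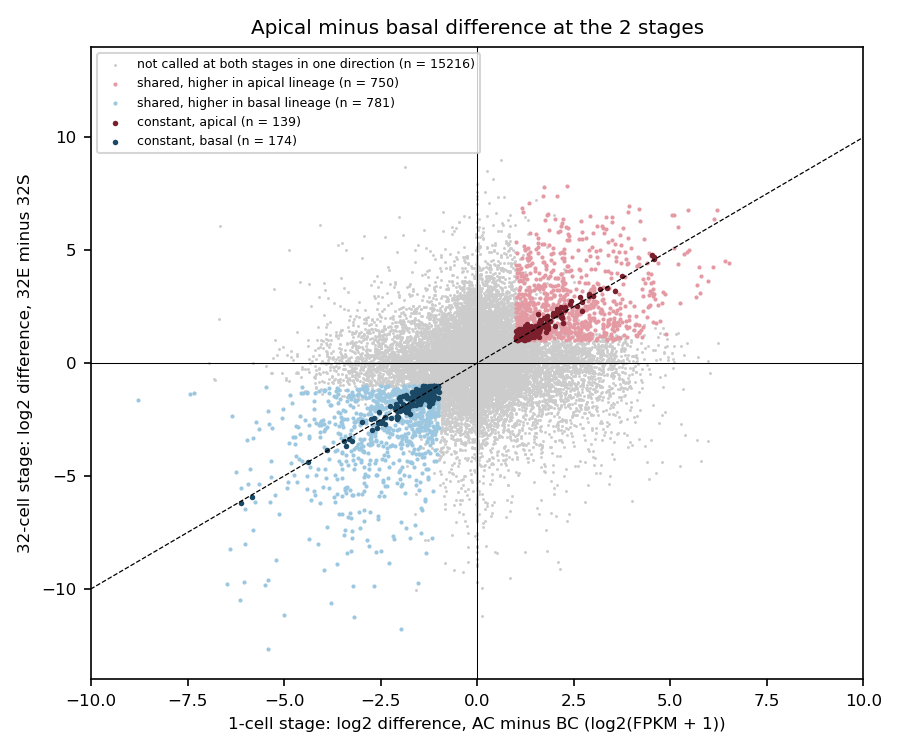
Each point is a gene tested, with its AC minus BC difference at the 1-cell stage on the x axis and its 32E minus 32S difference on the y axis, both on the log2(FPKM + 1) scale; the dashed line marks equal differences. Pale red and blue points are shared genes (889 apical and 955 basal when the dark ones are included), and the dark points, 139 apical and 174 basal, are the constant genes, which lie along the dashed line by their definition.

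Not every gene called in the pooled contrast carried its difference at both stages. Of the 2080 genes called higher in the ACL, 889 were called at both stages (42.7%), 451 at the 1-cell stage alone, 724 at the 32-cell stage alone and 16 at neither. Of the 1901 called higher in the BCL, the counts were 955 (50.2%), 429, 501 and 16. All shared genes were also called in the pooled contrast. In 738 of the 889 apical genes and in 833 of the 955 basal genes, every library of the higher lineage was above every library of the lower lineage, across both stages. Within each stage, 887 and 955 of them were separated in this way. The genes were chosen for called differences at both stages, so their separation follows largely from the choice. It was not counted over all genes tested.

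The constant genes numbered 313 (1.83% of the genes tested), 139 with the ACL higher (0.815%) and 174 with the BCL higher (1.02%). They were 15.6% of the shared apical genes and 18.2% of the shared basal genes. Their median pooled difference was 1.44 for the apical side, with sizes from 1.02 to 4.65, and -1.47 for the basal side, with sizes from 1.01 to 6.15. The interval criterion was demanding, since the half-width of the 95% interval had a median of 0.769 among shared genes. RECA1, with differences of 1.79 and 1.38, was the last gene inside the margin, and AT4G12410, with 2.21 and 1.75, was the first outside it. In all, 545 apical and 625 basal genes, the constant ones among them, were shared without a called change between stages.

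The top constant genes of the ACL had little or no signal in both basal groups. AT5G49665, which encodes a C3HC4-type RING finger protein of the kind that often acts in ubiquitin transfer, was at 22.3, 16.9 and 28.0 FPKM in the AC libraries, at 0 in all BC libraries, at 24.6, 24.6 and 30.5 in 32E and at 0 in all 32S libraries. The 6 ACL libraries were all above the 6 BCL libraries, and the pooled difference was 4.65 ± 0.21 (SE, adjusted p = 5.22e-08). AT4G08910, annotated as a homeobox protein, had 21.3, 16.5 and 33.7 FPKM in AC and 28.9, 27.3 and 19.5 in 32E, and was listed at 0 in every BC and 32S library. Its level did not shift visibly between stages, and its pooled difference was 4.64 ± 0.23 (SE, adjusted p = 1.01e-07). For 11 of the 139 constant apical genes all 6 basal libraries were at 0. For such genes the difference is the apical level itself on the log scale, and its constancy says that the apical level was alike at both stages.

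AT3G15550, annotated as a trichohyalin-like protein, was at 29.7, 42.2 and 46.6 FPKM in AC, at 0.74, 0.59 and 0.72 in BC, at 23.3, 15.3 and 37.3 in 32E and at 0 in 32S. Groups did not overlap at either stage, and the differences were 4.57 and 4.63. AT1G08610 encodes a pentatricopeptide repeat protein, a family known for RNA processing in plastids and mitochondria. It was at 45.9, 47.3 and 66.2 FPKM in AC and 6.16, 6.23 and 6.02 in BC, then at 20.4, 19.1 and 19.1 in 32E and 0.76, 2.29 and 1.51 in 32S. Its level fell in both lineages, with differences of 2.90 and 3.07 on the log2(FPKM + 1) scale and an interval of -0.89 to 0.56 for the change. AT2G05420, a TRAF-like gene that is among the study's own reporters, also fell in both lineages, from 182, 94.6 and 127 FPKM in AC and 19.9, 18.4 and 20.3 in BC to 7.48, 6.88 and 5.39 in 32E and 0 in 32S. With 32S at 0, its second difference is the 32E level itself on the log scale.

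Other constant apical genes rose in both lineages between the stages. APK1A, a protein kinase gene, was at 8.82, 5.86 and 10.2 FPKM in AC and at 0 in BC, and at 33.6, 60.9 and 46.3 in 32E and 3.33, 4.97 and 3.46 in 32S. Its difference was 3.18 at the first stage and 3.26 at the second. With BC at 0, the first difference is the AC level itself on the log scale, so its match with the second depends on the pseudocount. AT2G36410, a gene of the DUF662 family, behaved alike, also with BC at 0, and had differences of 3.74 and 3.84. The rest of the top 10 were AT5G01420, a glutaredoxin family gene of thiol redox control (3.56 and 3.18), AT2G27770, a DUF868 family gene (3.36 and 3.33), and XTH8, an enzyme that cuts and rejoins xyloglucan in the cell wall (2.90 and 2.97). In these genes every basal library was at 0.5 FPKM or below, so the differences are mainly the apical levels on the log scale. Their pooled adjusted p-values ranged up to 3.22e-06 for XTH8.

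The constant genes of the BCL were led by a UDP-glycosyltransferase gene, AT5G14860, of a family that attaches sugars to small molecules. It was at 0, 1.08 and 0 FPKM in AC, at 90.6, 91.8 and 82.0 in BC, at 0.76, 0.04 and 0.05 in 32E and at 90.0, 87.7 and 89.8 in 32S. The basal level was nearly the same at both stages, and the pooled difference was -6.15 ± 0.24 (SE, adjusted p = 2.09e-08). AT5G57480, a P-loop nucleoside triphosphate hydrolase, was at 0 in AC, at 60.7, 52.6 and 55.1 FPKM in BC, at 0, 0.04 and 0 in 32E and at 72.2, 45.0 and 66.8 in 32S. Its differences were -5.83 and -5.91, with no overlap between lineages.

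AT1G53420, a leucine-rich repeat receptor kinase gene, stood at 1.59, 4.09 and 2.25 FPKM in AC and 69.9, 68.1 and 80.4 in BC, and at 0.92, 0.36 and 0.45 in 32E and 31.9, 29.6 and 33.2 in 32S. Both lineages fell between the stages, and the differences were -4.39 and -4.38. AT2G05330, a BTB/POZ domain gene of a family that often serves as an adaptor for protein degradation, was among the most abundant constant genes. Its FPKM was 28.3, 37.4 and 31.3 in AC, 337, 341 and 373 in BC, 68.6, 57.5 and 77.1 in 32E and 935, 794 and 894 in 32S. Both lineages rose, the order held in all libraries, and the differences were -3.41 and -3.68 (pooled adjusted p = 1.52e-08).

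Several other top basal genes encode enzymes and transporters of small molecules. AT1G66780, a MATE efflux gene, was at 3.18, 3.22 and 5.13 FPKM in AC, 77.0, 65.7 and 68.3 in BC, 10.8, 22.1 and 14.4 in 32E and 219.7, 240.5 and 232.9 in 32S. Its differences were -3.90 and -3.85. PFK1, a phosphofructokinase of glycolysis, had differences of -3.46 and -3.46, and UGT73B3, another UDP-glycosyltransferase, had -3.23 and -3.43. GPX2, a glutathione peroxidase, was at 21.7 to 36.0 FPKM in AC and 196 to 270 in BC, and at 26.3 to 36.2 in 32E and 186 to 206 in 32S. NOL, a gene of chlorophyll b breakdown, had differences of -2.73 and -2.95, and AT3G51090, a DUF1640 coiled-coil gene, had -3.31 and -3.35. PFK1 and NOL were at 0 in all AC libraries, and UGT73B3 was at 0.03, 0 and 0 FPKM there. Their first differences are thus mainly the BC levels on the log scale. NOL was at 4.53, 4.74 and 3.2 in 32E, so the match of its differences depends on the pseudocount. Only 2 of the 174 constant basal genes had all 6 apical libraries at 0.

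**Figure D2:**
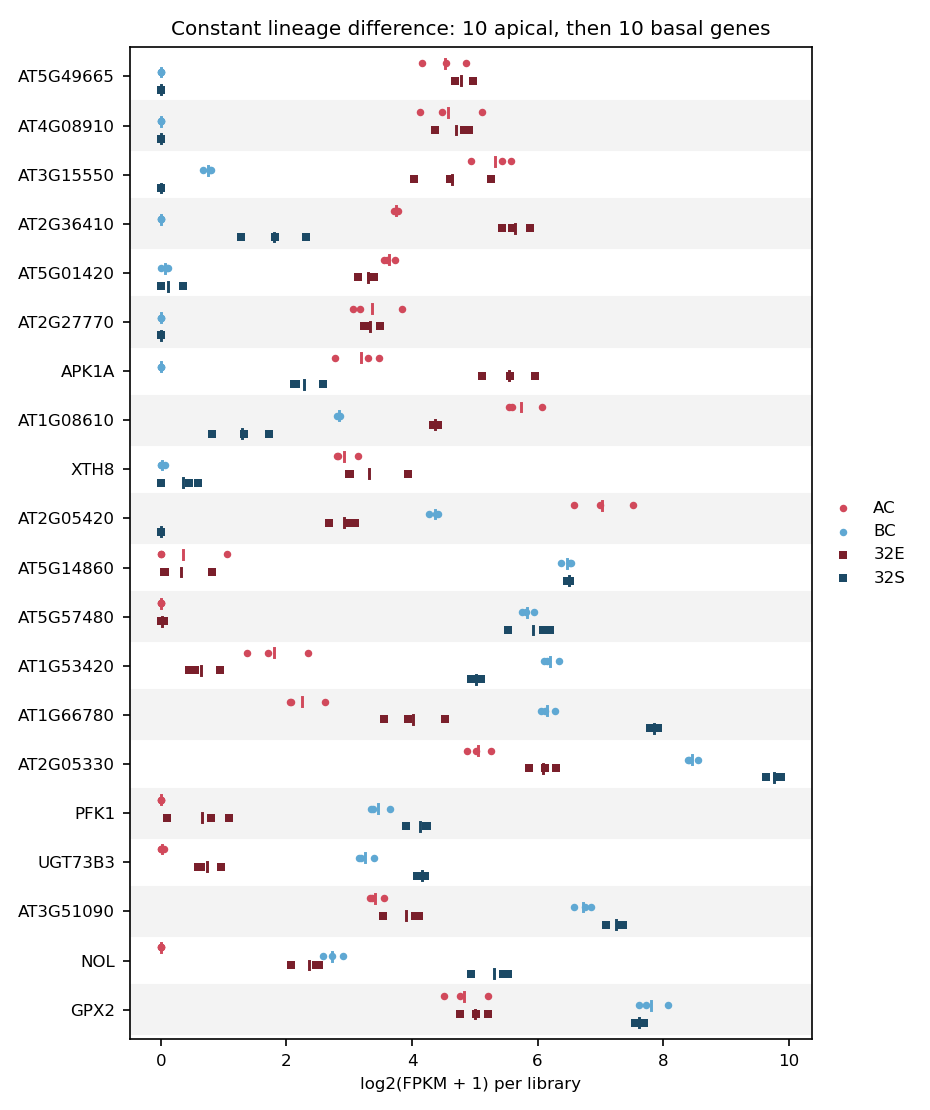
FPKM of each library on a log2(FPKM + 1) axis for the 10 constant genes per direction that the naming rule chose, with 3 points and a bar at the mean for AC, BC, 32E and 32S. By that rule, the red ACL points lie to the right of the blue BCL points at both stages in the upper 10 genes. In the lower 10 genes they lie to the left. AT1G08610 and AT2G05420 move left in both lineages from the 1-cell stage (circles) to the 32-cell stage (squares), whereas AT2G05330 moves right in both.

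Cell division genes were prominent on the apical side. B-type cyclins and their kinases drive cells through mitosis, and KN, a syntaxin, acts in building the new cell wall during cytokinesis. Of 36 mitosis and cytokinesis genes tested, 18 were higher in the ACL at both stages and none in the BCL, where 5.21% and 5.60% of all genes tested were. These shares are the background for the shared counts of every list below. The median pooled difference of the list was 2.40, against 0.05 for all genes tested. The share of its members called was 18 of 36 at the 1-cell stage for the apical side, 3 of 36 for the basal side, and 33 of 36 for the apical side at the 32-cell stage.

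KN was at 147, 139 and 165 FPKM in AC and 5.02, 3.66 and 19.1 in BC, and at 104, 92.4 and 144 in 32E and 0 in 32S. CYCB1;3, a B1 cyclin, was at 308, 375 and 376 in AC, 15.5, 11.4 and 60.1 in BC, 113, 106 and 153 in 32E and 0 in 32S. MAD2, a spindle checkpoint gene, was at 284, 308 and 310 in AC, 18.5, 18.5 and 67.8 in BC, 159, 128 and 155 in 32E and 0.08, 1.80 and 0.53 in 32S. In all 3 genes every ACL library was above every BCL library, and BC replicate 3 was the highest of the BC libraries. The differences of the first and second stage were 4.19 and 6.81 for KN, 3.93 and 6.94 for CYCB1;3 and 3.35 and 6.47 for MAD2, and the pooled adjusted p-values were at most 3.57e-05. Without BC replicate 3, 19 members of the list were shared. CYCB2;3, named here because it was the only constant gene of the list, was at 139.99, 189.5 and 161 in AC, 64.8, 61.9 and 69.5 in BC, 48.3, 38.7 and 45.4 in 32E and 17.5, 14.1 and 18.2 in 32S. Its level fell by a similar factor in both lineages, with differences of 1.3 and 1.36.

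**Figure D3:**
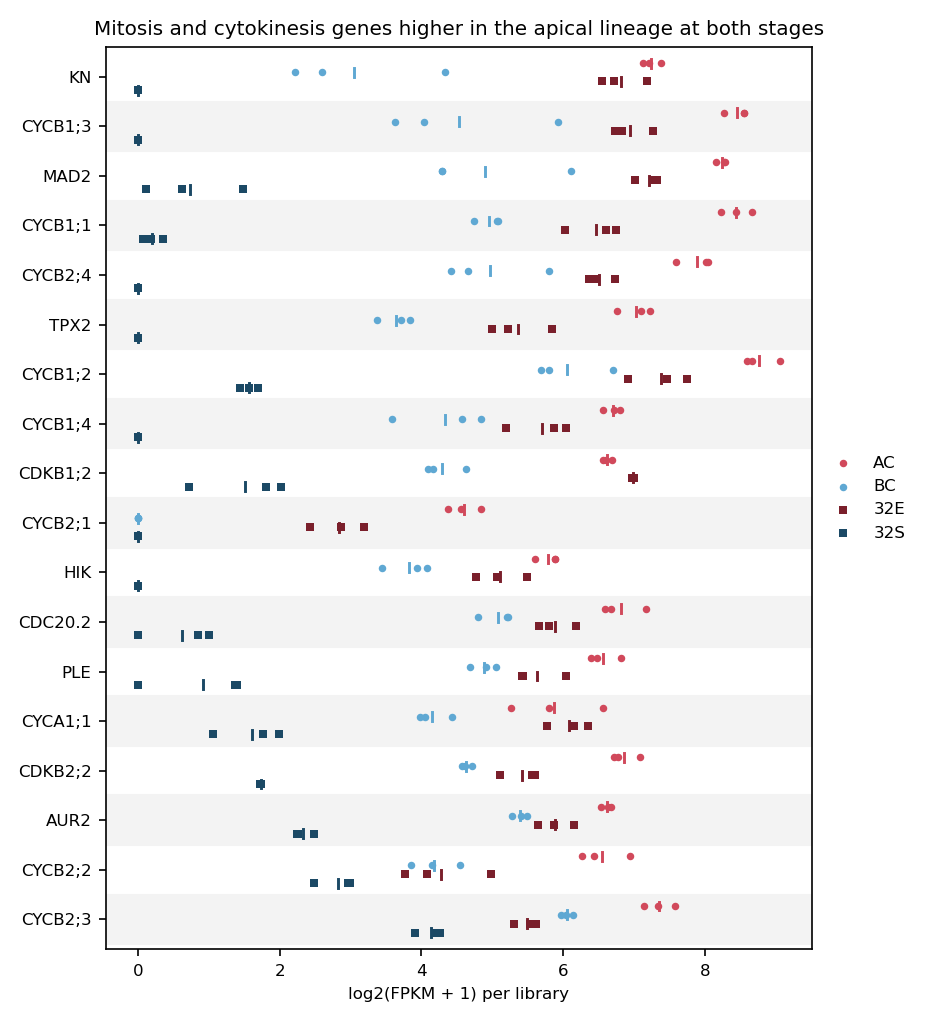
FPKM of each library on a log2(FPKM + 1) axis for the 18 mitosis and cytokinesis genes with a shared difference, ordered by pooled difference, with bars at the group means. AC lies above BC and 32E above 32S in every row, which follows from the choice of shared genes. For 7 genes, KN and CYCB1;3 among them, all 3 libraries of 32S are at 0.

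Genes of mitosis often carry the MSA core, AACGG, to which 3R-MYB factors bind in plants. In a promoter window from 250 bases before to 50 bases after the annotated start, AACGG or its reverse complement was present in 16 of the 18 shared mitosis genes and in 27.9% of all tested genes with a promoter. At least 2 copies were present in 72.2% of the 18 and in 6.14% of all. Among shared genes, the core occurred in 36.2% of the apical and 24.6% of the basal promoters. Among constant genes the shares were closer, 34.1% and 30.6%, both above that of all genes. The 200 bases before the start are shown for the B-type cyclins CYCB1;2, CYCB1;3, CYCB2;2 and CYCB2;3 from RefSeq on TAIR10.1, because they carry the cores in clusters. They read 5′ to 3′ on the strand of the gene, with the MSA core of either strand in capitals.
CYCB1;2, chr5:1861704-1861903, minus strand: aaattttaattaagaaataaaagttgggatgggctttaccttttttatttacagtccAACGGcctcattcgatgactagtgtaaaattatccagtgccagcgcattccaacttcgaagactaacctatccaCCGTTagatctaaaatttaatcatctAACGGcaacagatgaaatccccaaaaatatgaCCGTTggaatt
CYCB1;3, chr3:3627274-3627473, minus strand: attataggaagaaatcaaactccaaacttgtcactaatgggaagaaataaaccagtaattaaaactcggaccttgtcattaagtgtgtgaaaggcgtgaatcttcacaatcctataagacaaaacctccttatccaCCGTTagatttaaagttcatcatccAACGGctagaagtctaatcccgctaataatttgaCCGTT
CYCB2;2, chr4:16901396-16901595, plus strand: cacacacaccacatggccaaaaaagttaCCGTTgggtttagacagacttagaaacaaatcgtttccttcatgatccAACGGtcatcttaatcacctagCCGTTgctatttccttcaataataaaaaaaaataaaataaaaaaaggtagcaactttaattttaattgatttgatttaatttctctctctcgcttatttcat
CYCB2;3, chr1:7137829-7138028, minus strand: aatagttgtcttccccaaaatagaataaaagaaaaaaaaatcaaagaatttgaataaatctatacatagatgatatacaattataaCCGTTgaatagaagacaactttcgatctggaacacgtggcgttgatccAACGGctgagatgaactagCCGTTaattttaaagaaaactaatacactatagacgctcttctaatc

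Of 31 tested genes of DNA replication and chromatin assembly, 6 were higher in the ACL at both stages and none in the BCL, with a median pooled difference of 1.38. Within the stages, 8 were apical and 2 basal at the 1-cell stage, and 27 were apical and 1 basal at the 32-cell stage. The basal calls, named for that count, were the helicase subunits MCM3 (-1.17 and 2.57) and MCM4 (-1.29 and 2.73), which changed sides between the stages, and RNR2A, a ribonucleotide reductase subunit that changed sides the other way (1.33 and -2.86). FAS1, a subunit of the chromatin assembly factor that loads histones behind the fork, was at 4.97, 6.94 and 5.29 FPKM in AC, 0.26, 0.26 and 0.71 in BC, 22.0, 18.1 and 22.7 in 32E and 1.60, 2.14 and 1.62 in 32S. It kept its order in all libraries while both lineages rose, with differences of 2.26 and 2.98. MCM2, a helicase subunit, was at 25.6 to 42.2 in AC and 8.84 to 10.9 in BC, and at 71.5 to 107 in 32E and 6.25 to 8.70 in 32S. CDT1B, which licenses origins, had differences of 1.31 and 4.34. The E2F site, searched as TTTCCCGC or TTTGGCGC on both strands, was present in 41.9% of the promoters of the list and in 1.49% of those of all tested genes. It was in 3.27% of the shared apical and 1.26% of the shared basal promoters. FAS1 and ICU2, a DNA polymerase alpha gene that was also shared and was picked for its sequence, hold both forms, shown with the sites in capitals.
FAS1, chr1:24324092-24324291, minus strand: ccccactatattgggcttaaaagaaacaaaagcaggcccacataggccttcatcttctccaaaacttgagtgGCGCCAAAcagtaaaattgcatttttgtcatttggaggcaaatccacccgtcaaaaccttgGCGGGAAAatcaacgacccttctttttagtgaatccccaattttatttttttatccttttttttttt
ICU2, chr5:26776753-26776952, plus strand: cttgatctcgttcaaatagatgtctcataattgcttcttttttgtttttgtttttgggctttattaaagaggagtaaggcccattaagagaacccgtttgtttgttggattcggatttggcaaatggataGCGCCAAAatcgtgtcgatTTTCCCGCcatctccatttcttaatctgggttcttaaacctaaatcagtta

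Of 36 histone genes tested, 6 were higher in the ACL at both stages and none in the BCL, where 5.21% and 5.60% of all genes tested were. Within the stages, 6 were apical at the 1-cell stage and 31 at the 32-cell stage, and none was basal at either. Of all genes tested, 19.0% were apical at the 1-cell stage and 23.8% at the 32-cell stage, so the histone calls came mainly from the 32-cell stage. Near-identical histone genes can share reads, so single members are uncertain. HTR9, an H3 gene, was at 420, 418 and 417 FPKM in AC, 197, 203 and 189.8 in BC, 490, 564 and 650 in 32E and 24.0, 31.5 and 24.9 in 32S, with differences of 1.09 and 4.36. The H4 genes AT5G59690 and AT5G59970 had differences of 1.18 and 3.87, and of 1.23 and 2.63. Another H4 gene, AT1G07660 (1.88 and 1.87), and the H2A.X gene HTA5 (1.09 and 1.35) were the constant members, named here for that count. The differences of HTR9, AT5G59690 and AT5G59970 were larger at the 32-cell stage.

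In the list of DNA methylation, Polycomb and Argonaute genes, 7 of 29 were higher in the ACL at both stages and none in the BCL, though 2 were basal at the 1-cell stage and 7 at the 32-cell stage. AGO5, an Argonaute of reproductive tissue, was at 244, 223 and 215 FPKM in AC, 11.8, 47.8 and 12.3 in BC, 84.9, 80.5 and 96.6 in 32E and 0, 0 and 0.02 in 32S. AGO8 fell from 53.6, 57.4 and 53.2 in AC to 4.51, 3.24 and 2.14 in 32E, and from 1.53, 5.82 and 1.88 in BC to 0 in 32S. In both, BC replicate 2 was the highest BC library and still below all AC libraries. DRM1, a methyltransferase of de novo DNA methylation, had differences of 3.85 and 1.62. EMF2, a Polycomb subunit named for being the list's only constant gene, had 1.82 and 1.66.

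Among D-type cyclins and CDK inhibitors, which act at the entry into the cell cycle, the list split. Of 17 tested, 4 were higher in the ACL at both stages and 2 in the BCL, and the median pooled difference was -0.56. CYCD3;1 was at 4.13, 2.64 and 6.5 FPKM in AC, at 0 in all BC libraries, 55.2, 70.4 and 53.4 in 32E and 0, 0.54 and 0.20 in 32S. KRP3, a CDK inhibitor, was higher in the ACL with differences of 3.18 and 5.02, and CYCD6;1, a cyclin of formative divisions in the root, with 3.0 and 3.06. The members higher in the BCL were CYCD4;1 (-1.64 and -1.91) and CYCD4;2 (-1.86 and -2.21), named for that count.

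Patterning regulators of the embryo were tested next. Of 26 tested genes of apical and embryo patterning, 5 were higher in the ACL at both stages and 1, FUS3, in the BCL, where 5.21% and 5.60% of all genes tested were. Within the stages, 5 were apical and 5 basal at the 1-cell stage, and 20 were apical and 2 basal at the 32-cell stage. MP (-1.93 and 1.90), PLT2 (-2.52 and 1.18) and PLT3 (-3.67 and 1.24), named for that count, changed sides. PLT1 (-3.57 and 1.23) was called only at the 1-cell stage. HAN, a GATA factor that sets the boundary between proembryo and suspensor, was at 259.7, 246 and 204 FPKM in AC, 72.6, 82.2 and 60.3 in BC, 194, 156 and 152 in 32E and 0 in 32S. PHB, an HD-ZIP III factor of the upper embryo, was at 6.58, 11.4 and 9.66 in AC, 0.07, 0.01 and 0.53 in BC, 72.6, 82.0 and 96.5 in 32E and 1.36, 2.40 and 1.44 in 32S. The lineages did not overlap for either gene, and both differences were larger at the 32-cell stage. FUS3, a B3 factor of seed maturation, was at 0 in AC, 23.4, 17.3 and 20.5 in BC, 3.50, 13.2 and 5.76 in 32E and 428, 279 and 394 in 32S. Its differences were -4.41 and -5.58 (pooled adjusted p = 4.78e-07). The list's median difference was 0.00 at the 1-cell stage and 2.02 at the 32-cell stage.

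Of 15 tested genes of the basal cell, the suspensor and zygote asymmetry, 4 were higher in the BCL at both stages and none in the ACL. WOX8, a homeobox factor of the basal lineage, was at 8.99, 7.02 and 9.35 FPKM in AC, 359, 325 and 366 in BC, 0 in 32E and 446, 388 and 452 in 32S. Its relative WOX9 was at 1.43, 0.04 and 0.14 in AC, 632, 658 and 608 in BC, 96.2, 75.9 and 105 in 32E and 244, 361 and 271 in 32S. WOX8 kept a high basal level while its apical signal went to 0, and WOX9 kept its order while its 32E level rose, so that their differences went from -5.22 to -8.74 and from -8.80 to -1.64. PIN7, an auxin efflux carrier, was at 0 in AC, 16.0, 14.5 and 11.8 in BC, 0.81, 4.70 and 1.98 in 32E and 85.5, 138 and 103 in 32S. The remaining shared member was WRKY2 (-3.98 and -2.69), a factor upstream of WOX8, named for the count.

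Of 21 auxin genes tested, 3 were higher in the ACL and 4 in the BCL at both stages. They act in synthesis and transport, and none of the 5 receptor genes tested was shared. YUC3, an enzyme of auxin synthesis, was at 0 in AC and 9.69, 8.33 and 8.11 FPKM in BC, and at 0 in 32E and 325, 315 and 329 in 32S. AUX1, an auxin influx carrier, was on the apical side, at 33.2, 30.7 and 44.1 in AC, at 0 in all BC libraries, 63.2, 65.2 and 69.4 in 32E and 0.07, 0 and 0 in 32S. The lineages did not overlap, and the pooled difference of AUX1 was 5.61 ± 0.22 (SE, adjusted p = 2.54e-08). The shared influx carriers, AUX1 and LAX1, were apical, and the shared efflux carriers, PIN7 and ABCB1, were basal. ABCB1, the constant member of the list, had differences of -1.83 and -1.48, and LAX1 had 1.87 and 5.88. Synthesis was divided by gene, with YUC4 higher in the ACL (1.92 and 4.04) and YUC3 and YUC9 in the BCL (-2.99 and -5.81 for YUC9). LAX1, ABCB1, YUC4 and YUC9 were named after their values were seen, to complete the count.

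Peroxisomal beta-oxidation and the glyoxylate cycle turn stored lipid into sugar precursors. Of 19 genes tested, 6 were higher in the BCL at both stages and none in the ACL, with a median pooled difference of -1.21. PCK1, the enzyme that opens gluconeogenesis, was at 0.27, 0.19 and 0 FPKM in AC, 7.59, 6.09 and 9.86 in BC, 15.6, 34.7 and 25.2 in 32E and 668, 511 and 641 in 32S. KAT5, a thiolase, was at 0 in AC, 9.05, 16.2 and 7.73 in BC, 1.64, 2.61 and 2.03 in 32E and 23.2, 39.7 and 29.0 in 32S. Lineages did not overlap within a stage for either gene, though PCK1 in 32E was above its BC level. CSY2, a peroxisomal citrate synthase, had differences of -1.06 and -4.34, and its call was lost without AC replicate 2 and with median-ratio scaling.

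Of 12 sugar transporters tested, 4 were higher in the BCL at both stages and 1 in the ACL. SWEET8, a sugar exporter, was at 312, 421 and 348 FPKM in AC, 2078, 1962 and 2393 in BC, 0.29, 0 and 0.14 in 32E and 193, 82.5 and 160 in 32S. SUC5, a sucrose and biotin importer of the seed, was at 39.1, 67.0 and 46.8 in AC, 300.4, 277 and 302 in BC, 4.57, 15.1 and 5.87 in 32E and 529, 463 and 521 in 32S. Both levels of SWEET8 fell between the stages, whereas SUC5 fell in the ACL and rose in the BCL. SWEET15 had differences of -1.14 and -5.68, and its shared call was lost without AC replicate 2. The apical member, SUC1, named for the count, was at 10.46, 9.55 and 14.45 FPKM in AC, 0, 4.04 and 2.61 in BC, 2.81, 7.15 and 11.44 in 32E and 0 in 32S. Its shared call was lost without AC replicate 1, AC replicate 3 or BC replicate 1, and with a pseudocount of 0.1.

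Of 7 tested genes of developmental cell death, 4 were higher in the BCL at both stages and none in the ACL. CEP1, a cysteine endopeptidase of dying cells, was at 3.06, 6.17 and 5.67 FPKM in AC, 16.2, 15.1 and 15.8 in BC, 0.91, 0.16 and 0.32 in 32E and 1147, 1312 and 1228 in 32S. The metacaspases MC2 and MC4 had differences of -1.27 and -5.03, and of -1.20 and -3.31. All 3 genes had the smaller difference at the 1-cell stage. MC4 lost its shared call without BC replicate 2, the highest BC library for it at 82.8 FPKM against 50.8 and 53.2.

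Smaller lists followed, where 5.21% of all genes tested were shared on the apical side and 5.60% on the basal side. With so few shared genes per list, the counts are descriptions and give no direction for a list. Of 23 protoderm and cuticle genes tested, 2 were shared and both were apical. They were KCS20 of very long chain fatty acid synthesis (3.48 and 5.47) and GPAT4 of cutin synthesis (4.78 and 2.65). Of 9 aquaporins tested, 2 were apical, PIP1;3 (1.74 and 7.78) and PIP1;1 (3.20 and 2.36). Of 13 gibberellin genes tested, only GA3, an ent-kaurene oxidase of gibberellin synthesis, was shared, and it was constant, with AC between 59.3 and 70.5 FPKM, BC between 23.0 and 31.9, 32E between 116 and 159, and 32S between 40.9 and 47.5. Of 7 type-A response regulators of cytokinin tested, ARR4 was apical (3.62 and 4.0) and ARR9 basal (-1.32 and -2.88). Of 13 nuclear photosynthesis genes tested, 2 were basal, PSBO1 (-4.69 and -2.78) and LHCB5 (-3.49 and -3.44). For both of these 32E replicate 2 was the highest 32E library, at 8.99 and 8.60 FPKM, and remained below the 32S libraries. None of 13 housekeeping genes tested was shared, and their median pooled difference was -0.07.

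**Figure D4:**
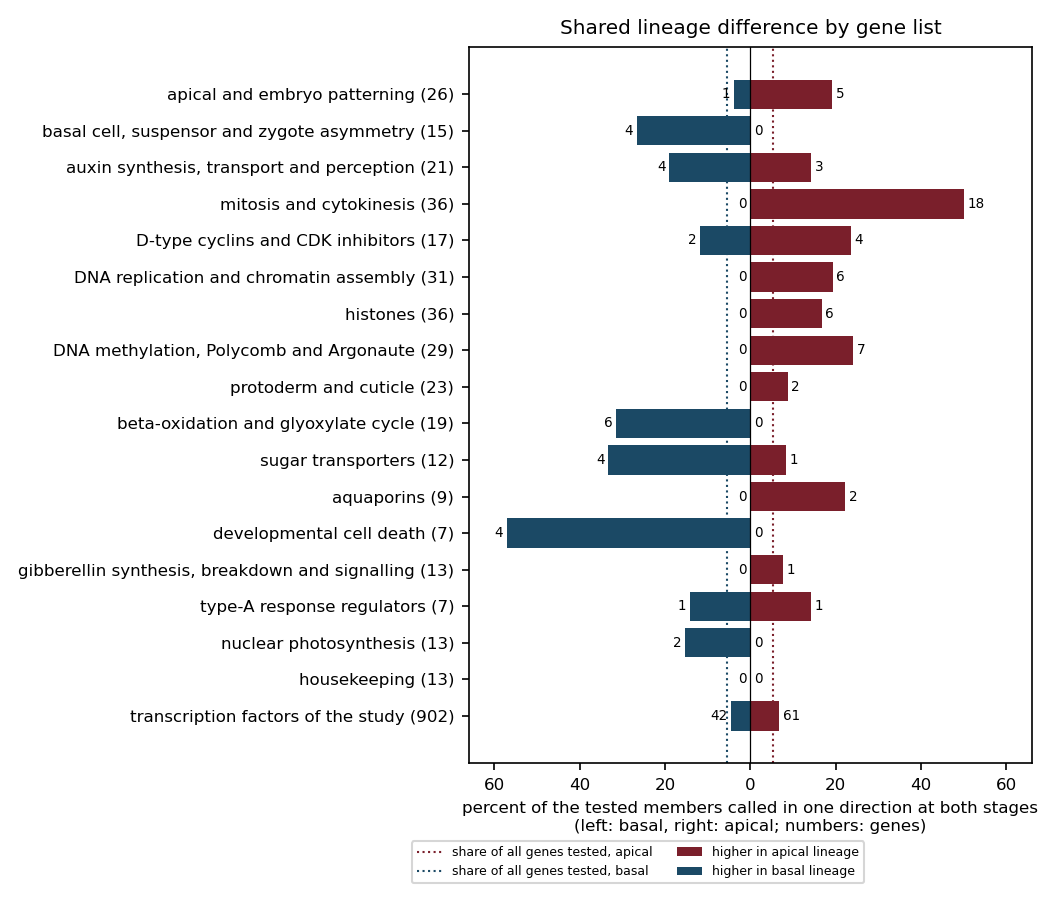
Share of the tested members of each list that was called in a single direction at both stages, with apical calls to the right and basal calls to the left; the numbers are genes, the number tested follows the list's name, and the dotted lines mark 5.21% and 5.60%, the shares among all genes tested. Mitosis and cytokinesis reaches 18 of 36 on the apical side, and the beta-oxidation, sugar transporter and cell death lists lie mainly on the basal side.

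Of the 954 transcription factor genes that the study listed, 902 were tested. That list was chosen by the study on these samples. Among them 61 were higher in the ACL and 42 in the BCL at both stages, with 4 and 3 constant. These counts are near what 5.21% and 5.60%, the shares of all genes tested, would give, and are not a result about the factors as a class. The families are small, and their counts are descriptions. The bHLH family had 7 apical and no basal members of 64, GATA had 4 and none of 21, GRF had 3 and none of 4, and the Nin-like family, which holds the RKD genes, had 3 and none of 12. B3 factors had 5 apical and 1 basal of 38. The ERF family was even, with 6 and 6 of 78. WRKY had 1 apical and 4 basal of 31, and WOX none and 2 of 9. The bZIP family had 2 and 4 of 47, near the shares of all genes tested.

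RKD3, an RWP-RK factor of a family known from egg cells, led the apical factors. It was at 744, 586 and 680.5 FPKM in AC, 40.3, 39.5 and 52.5 in BC, 134, 92.0 and 86.0 in 32E and 0 in 32S. RKD2 was at 48.7, 46.4 and 58.1 in AC and 8.37, 16.5 and 7.05 in 32E, and at 0 in all BCL libraries. Both fell in the ACL between the stages without overlapping the BCL at either. ABI4, an AP2-type factor of seed and abscisic acid responses, was steadier, at 61.9, 60.9 and 40.8 in AC, 0, 0 and 0.84 in BC, 45.9, 43.4 and 50.3 in 32E and 0.52, 0 and 1.05 in 32S. Its interval for the change between stages, -0.54 to 1.45, passed the margin, so it was shared but not constant. The B3 genes AT3G19184 (5.43 and 4.92) and AT5G25475 (4.68 and 4.43) and the bHLH gene AT1G68810 (3.71 and 5.69) completed the top 6.

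On the basal side WOX8 and WOX9 were joined by WRKY28, which was at 0, 8.44 and 0 FPKM in AC, 133, 136 and 134 in BC, 0.06, 1.55 and 1.56 in 32E and 165, 167 and 175 in 32S. AC replicate 2 alone carried signal in AC, and the differences were -6.00 and -6.48. NF-YB6, also known as LEC1-LIKE, a subunit of the NF-Y complex of seed development, was at 1.53, 0 and 0 in AC, 7.89, 6.87 and 7.57 in BC, 0.87, 1.5 and 0.96 in 32E and 784, 590.4 and 732 in 32S. Its basal level was low at first and among the highest of the factors later. The C2H2 gene AT3G60580 had differences of -5.89 and -4.68, and MYB2 had -3.35 and -6.84 with all ACL libraries at 0.

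**Figure D5:**
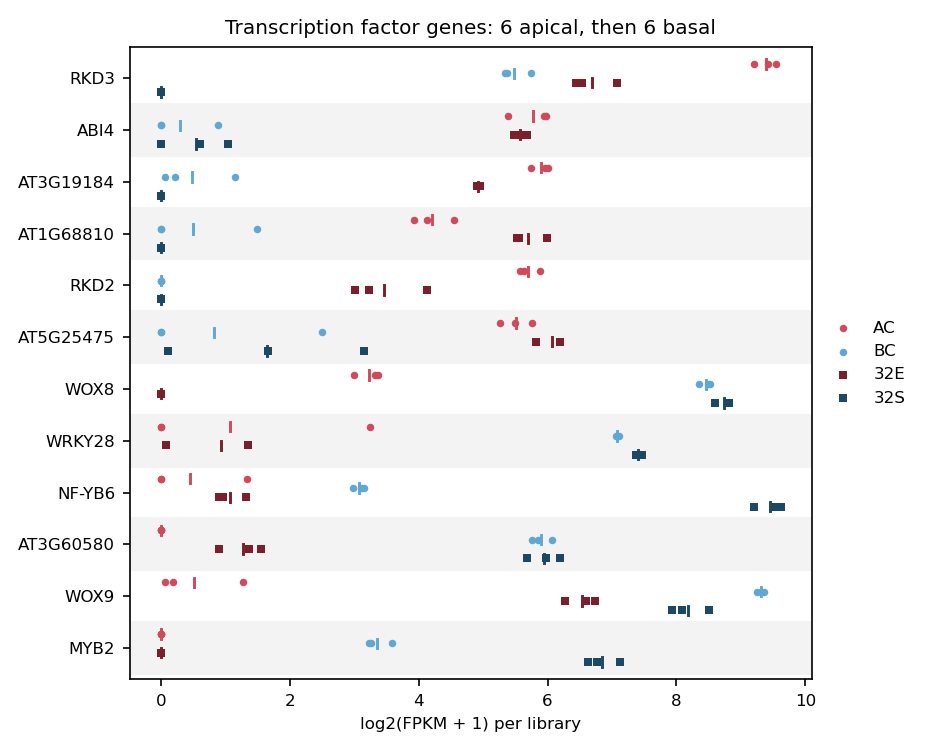
FPKM of each library on a log2(FPKM + 1) axis for the 6 transcription factor genes per direction with the largest shared pooled difference, with bars at the group means. The upper 6 genes are apical and the lower 6 basal; WOX9 shows the 32E libraries at 75.9 to 105 FPKM, close to 32S at 244 to 361, and NF-YB6 shows BC at 6.87 to 7.89 against 32S at 590.4 to 784.

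WRKY factors bind the W-box, searched as TTGACC or TTGACT on both strands of the same promoter window. It was present in 44.1% of the promoters of the shared basal genes, 28.8% of those of the shared apical genes and 33.0% of those of all genes tested. Among constant genes the shares were 43.9% on the basal and 30.4% on the apical side. The G-box CACGTG, a site of bZIP and bHLH factors, was in 12.6% of the shared basal, 7.56% of the shared apical and 8.93% of all promoters. The telo box AAACCCTA, common in genes of ribosome synthesis, ran the other way, with 2.52%, 8.01% and 6.43%. The TATAAA box was in 52.1%, 47.1% and 49.9%. The auxin response core TGTCTC was in 10.6% of the shared basal, 16.9% of the shared apical and 13.5% of all promoters, and the seed RY core CATGCA in 10.2%, 6.43% and 7.58%. The site II core TGGGCC was in 13.7%, 20.3% and 21.4%, and the L1 box TAAATGTA in 3.68%, 3.84% and 3.34%. These shares are descriptions of the letters and were not tested. The 200 bases before the start of the constant basal genes AT5G14860, AT1G66780 and AT3G51090 are shown as examples, with the W-box of either strand in capitals.
AT5G14860, chr5:4805646-4805845, plus strand: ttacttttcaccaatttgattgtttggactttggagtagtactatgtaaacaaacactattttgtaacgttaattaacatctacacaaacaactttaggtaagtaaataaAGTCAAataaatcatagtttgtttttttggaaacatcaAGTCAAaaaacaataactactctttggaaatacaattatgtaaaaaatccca
AT1G66780, chr1:24908978-24909177, plus strand: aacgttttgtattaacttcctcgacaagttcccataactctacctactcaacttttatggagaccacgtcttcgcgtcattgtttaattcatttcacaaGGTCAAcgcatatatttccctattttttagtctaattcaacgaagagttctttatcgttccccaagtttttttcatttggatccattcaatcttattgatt
AT3G51090, chr3:18980054-18980253, minus strand: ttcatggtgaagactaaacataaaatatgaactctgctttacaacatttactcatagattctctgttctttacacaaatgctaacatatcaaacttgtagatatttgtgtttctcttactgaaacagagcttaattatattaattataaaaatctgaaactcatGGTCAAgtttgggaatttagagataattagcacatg

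The size of a shared difference often changed. Of the 889 apical genes, 219 had a larger difference at the 32-cell stage, 125 had a larger one at the 1-cell stage, and 545 had no called change. Of the 955 basal genes the counts were 243, 87 and 625. A change was called for 52.8% of all genes tested. The median difference of the shared genes went from 2.16 to 2.30 for the apical side and from -2.04 to -2.36 for the basal side, and 56.2% and 60.8% of them were larger at the 32-cell stage.

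The apical genes that gained most were PIP1;3, 3xHMG-box2 and HDT4. PIP1;3, a plasma membrane aquaporin, was at 26.4, 37.9 and 31.5 FPKM in AC, 8.34, 7.39 and 10.97 in BC, 340.15, 383 and 302 in 32E and 0.06, 1.80 and 0.25 in 32S. 3xHMG-box2, a chromatin protein of mitotic cells, had differences of 1.33 and 7.08, and HDT4, a plant-type histone deacetylase, had 1.154 and 6.87. HDT4 was at 471 to 500.2 FPKM in AC and 429 to 468 in 32E, and at 202 to 239 in BC and 1.88 to 3.78 in 32S, so that its level changed mainly in the BCL. The apical genes that shrank most were AT1G79630, a protein phosphatase (4.88 and 1.29), FBX2, an F-box gene (4.26 and 1.14), and AT1G17145, a RING/U-box gene (4.13 and 1.22). The shared calls of FBX2 and AT1G17145 were lost without 32S replicate 2, where they were lowest in 32S, at 4.69 and 10.4 FPKM, and that of AT1G17145 also without any 32E library.

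On the basal side LCR48, a small cysteine-rich peptide gene, was at 0 in AC, 3.86, 2.03 and 3.15 FPKM in BC, 3.14, 1.04 and 0.46 in 32E and 6705, 11524 and 7273 in 32S. AT1G09370, a pectin methylesterase inhibitor gene, was at 42.6, 46.4 and 39 in AC, 407, 392 and 401 in BC, 2.50, 1.71 and 1.73 in 32E and 5671, 10235 and 6551 in 32S. These and CEP1 gained most, and 32S replicate 2 was the highest of the 32S libraries in all 3. The basal genes that shrank most were WOX9, the annexin ANNAT4 (-7.45 and -1.36) and DTX1, a MATE efflux gene (-7.33 and -1.33). ANNAT4 was at 196, 204 and 202 in BC and only 4.22, 0.96 and 3.35 in 32S. Its shared call was lost when any 32E library or 32S replicate 1 or 3 was left out.

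The study's reporter genes, which it chose from these samples and therefore are not independent evidence, were shared in 9 of 10 on the apical side and 9 of 10 on the basal side. The exceptions were AT3G60670 (1.98 at the 1-cell stage, adjusted p = 0.029) and AT5G16570 (-0.55, adjusted p = 0.13), named for that count. ROPGEF5, an activator of ROP GTPases, was at 74.2, 94.4 and 84.0 FPKM in AC, at 0 in all BC libraries, 53.4, 41.0 and 46.8 in 32E and 1.73, 0.40 and 1.38 in 32S. AT5G49700, an AT-hook gene, had differences of 4.19 and 4.41, and AT2G01790, a TRAF-like gene, had 2.71 and 5.49. AT1G04645, a gene of the self-incompatibility protein S1 family, had the largest pooled basal difference of the reporters, at 6.71, 16.6 and 4.39 in AC, 333, 362 and 463 in BC, 0.18, 0.48 and 0 in 32E and 5806, 12111 and 6612 in 32S. AT4G04090 (-5.51 and -9.82) and the expansin EXPA14 (-5.42 and -9.59) were next.

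The labels were checked with 5 lineage markers. WOX8, WOX9 and PIN7 were basal and DRN, an AP2 factor of the shoot apex, was apical at both stages. DRN was at 60.3, 35.5 and 22.9 FPKM in AC, 10.3, 8.61 and 9.19 in BC, 100.5, 64.4 and 55.6 in 32E and 0.86, 0.92 and 0.98 in 32S. WOX2, of the patterning list, was not among the 5 markers and was named after its values were seen. It was at 104, 126 and 110 FPKM in AC and 165, 147 and 164 in BC. It was thus not called at the 1-cell stage (-0.48) and was apical only at the 32-cell stage (6.24). AT2G24310 was apical in the pooled contrast (3.52, adjusted p = 0.0023) but not called at the 1-cell stage, where BC replicate 2 reached 46.8 against 17.1 and 17.1 in the other BC libraries and 60.2 to 64.2 in AC. Of the markers of other tissues, 1 of 9 for endosperm, 2 of 13 for seed coat and 2 of 6 for egg and synergid passed the filter. None of these was shared. The other markers were too low to be tested, so they could not be shared. Of 9 endosperm markers, 4 of 27 values in AC and 1 of 27 in 32S were above 1 FPKM, none in BC or 32E, and their sum was 0 to 6.73 per library. The sum of 13 seed coat markers lay between 9.21 and 20.7 in AC, between 23.8 and 28.4 in BC, between 34.9 and 46.2 in 32E and between 3.86 and 12.5 in 32S, mostly from MUM4 and STK, and thus higher in the ACL at the second stage and in the BCL at the first. The sum of 6 egg and synergid markers lay between 21.5 and 32.8 in AC, between 21.6 and 29.2 in BC, between 1.80 and 3.51 in 32E and between 0.20 and 0.65 in 32S. Their part in the differences was not tested.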

How the data were processed

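RNA-seq was done on 12 libraries, 3 each of AC, BC, 32E and 32S. The authors deposited FPKM per gene. Their methods name Cutadapt, Bowtie 2 and RSEM for these values, and the submitters' processing notes name TopHat2 2.1.1 and RSEM, on TAIR10. The reads were unstranded, so overlapping and antisense genes are uncertain. The study reports reads per library, but no counts per gene were used here, and the precision rests on 3 libraries a group.

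Of 32399 genes, the 17060 above 1 FPKM in 3 or more libraries were tested on log2(FPKM + 1) with limma 3.58.1 in R 4.3.3, with an intensity trend and Benjamini-Hochberg adjustment. The pooled contrast used lineage and stage as additive terms. A model of 4 groups gave the difference within each stage and its change. Calls needed an adjusted p under 0.01 and a difference of at least 1. The procedure was tested on simulated data. Alternatives covered the pseudocount, filter, scaling, margin, replicate block and leaving out each library. The members and lists were chosen with earlier results of these data known. The text names the 10 largest constant genes per direction without overlap between lineages, the 6 largest shared transcription factors per direction, up to 3 shared genes per list, all lineage markers, and the 3 shared genes per direction with the largest change toward each stage. Others are said to be named for a count, for a sequence or after their values were seen. Products, positions and promoters came from RefSeq TAIR10.1, where 31912 gene IDs matched.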

Additional observations from a re-analysis of the deposited data

Results flagged for a closer look

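The lineage difference of 51 of the 88 named genes changed in size between the stages by the interaction term of limma, with Benjamini-Hochberg adjusted p-values of at most 0.0055, where 52.8% of all genes tested had such a change. The values are the 1-cell difference minus the 32-cell difference on the log2(FPKM + 1) scale, each apical minus basal. Genes named for the largest change between stages were chosen on this value, so for those it is a description.

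On the apical side 21 genes had the larger difference at the 32-cell stage, namely PIP1;3 (-6.05), 3xHMG-box2 (-5.75), HDT4 (-5.72), HAN (-5.67), AT2G24310 (-4.39), DRN (-3.37), HTR9 (-3.27), CYCD3;1 (-3.24), MAD2 (-3.13), CDT1B (-3.03), CYCB1;3 (-3.02), AGO5 (-2.95), RKD3 (-2.79), AT2G01790 (-2.79), AT5G59690 (-2.69), KN (-2.62), KCS20 (-1.99), AT1G68810 (-1.99), PHB (-1.88), MCM2 (-1.74) and AT5G59970 (-1.40). Another 8 had the larger difference at the 1-cell stage, namely AT1G79630 (3.60), FBX2 (3.12), AT1G17145 (2.91), RKD2 (2.24), DRM1 (2.23), GPAT4 (2.13), ROPGEF5 (1.89) and AGO8 (1.86).

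On the basal side 18 genes had the larger difference at the 32-cell stage, namely LCR48 (9.82), CEP1 (8.22), AT1G09370 (8.05), AT1G04645 (7.24), NF-YB6 (5.75), YUC3 (5.06), SWEET15 (4.54), SWEET8 (4.34), AT4G04090 (4.31), EXPA14 (4.18), MC2 (3.76), WOX8 (3.52), MYB2 (3.48), SUC5 (3.35), CSY2 (3.28), MC4 (2.1), PCK1 (1.67) and ARR9 (1.56). Another 4 had the larger difference at the 1-cell stage, namely WOX9 (-7.16), ANNAT4 (-6.09), DTX1 (-6.01) and AT3G60580 (-1.22).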

How the results depend on the processing

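The pooled differences of the named genes kept their direction and call in all 1880 combinations of gene and setting. Which lineage had more calls did depend on the scaling: without the 20 genes highest in 32S, 1902 apical and 2079 basal genes were called in the pooled contrast, and the median of all genes went from 0.05 to -0.02. With median-ratio scaling, 3919 genes were higher in 32E and 4119 in 32S, and 4723 changed toward a higher apical value at the 1-cell stage against 4274 at the 32-cell stage, where 4407 and 4609 did without it. The size of the lists depended on how low values were treated. With a pseudocount of 0.1, 88 constant apical genes were found, 81 of them among the 139. With a pseudocount of 5, 2154 genes were higher in AC and 531 were shared on the apical side. Of the 194 and 225 genes constant with that pseudocount, only 64 and 116 were among the 139 and 174. When genes at 0 in any library were left out, 1321 genes were higher in the ACL, 1732 in AC, 1947 in BC and 2515 in 32S, 2613 changed toward a higher apical value at the 1-cell stage, and 468 were shared on the apical side. Fewer genes are tested under that rule, and 56 of 87 named shared genes were not among them. Taking the average of both stage contrasts in place of the pooled contrast gave 3511 apical and 3198 basal genes. The spread used there is that within the groups alone, without the change between stages. A margin of 0.58 left 21 and 32 constant genes, and no interval at all gave 545 and 625. Leaving out 1 library gave 817 to 892 shared apical, 869 to 1026 shared basal, 105 to 144 constant apical and 132 to 201 constant basal genes. Shared calls of PIP1;3, WOX9, ANNAT4, CYCD6;1, CDT1B and ARR4 were lost with a pseudocount of 0.1, and those of FBX2, ANNAT4, LCR48, CYCD3;1, FAS1, AGO8, DRM1, CSY2 and ARR9 with 5; the cause was not tested. With the replicate block, 1541 and 1527 genes were called in the pooled contrast, 884 and 925 were shared and 136 and 161 were constant. The residuals of same-numbered libraries correlated at -0.13 to 0.07. With 3 libraries a group, these values cannot show whether same-numbered libraries were paired. Scaling without the 20 genes highest in 32S moved the apical share of the shared genes from 48.2% to 44.0%. Read counts per gene are unknown, so a gene listed at 0 may be expressed below detection.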

Other observations

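Gene families by annotated product were counted after their values were seen, over the 23 products with at least 40 tested genes, and are given as descriptions. Pentatricopeptide repeat proteins, which process RNA in plastids and mitochondria, had 30 of 176 genes shared on the apical side (17.0%) and none on the basal side, against 5.21% and 5.60% of all genes tested, and 5 of them were constant. At the 1-cell stage this family was mixed, with 49 apical and 33 basal calls. At the 32-cell stage it had 83 apical calls and 1 basal call, so hardly any member could be shared on the basal side. Leucine-rich repeat kinases had 9 of 65 on the apical side and 2 on the basal side. The major facilitator transporters had none of 54 on the apical side and 6 on the basal side, and alpha/beta-hydrolases had 2 of 130 and 11. RING/U-box proteins had 7 of 185 on the apical side and 14 on the basal side.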
